A study of Mus musculus with 16 samples.

Results

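The annexins are a family of proteins that bind membranes rich in negatively charged lipids, phosphatidylserine among them, when calcium is present. The 8 genes Anxa1, Anxa2, Anxa3, Anxa4, Anxa5, Anxa6, Anxa7 and Anxa11 were followed here, taken by gene symbol from the 55573 gene records of the deposited table, with 1 record each. They were measured by RNA sequencing in RAW264.7, a mouse macrophage-like cell line. The 16 libraries form 4 groups of 4, which the labels call Parental and, where KD stands for a knockdown, CDC50A KD, ATP11A/C KD and ORP5/8 KD; the names of the KD libraries begin with "sh", those of Parental with "Ctrl". Nothing in the labels gives a treatment, a phagocytic cargo, a non-targeting construct or whether a KD line is 1 clone, and all groups share the same line and a harvest on the day after plating. Since the labels do not say that replicates were separate cultures, the p-values below reflect only how far these libraries scatter, and that scatter may be technical.

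Every annexin has a conserved core of repeats that holds calcium and docks on the membrane, and an amino-terminal head that differs between members and binds partners such as S100 proteins. Phosphatidylserine is kept on the inner side of the plasma membrane of healthy cells by flippases, and its exposure on the outside marks a dying cell for uptake by macrophages. Labelled annexin A5 is widely used to detect that exposure, and annexin A1 is known in macrophages as a secreted regulator of inflammation and of the uptake of apoptotic cells. ORP5 and ORP8 bring phosphatidylserine to the plasma membrane, ATP11A is a flippase that returns it to the inner leaflet, and CDC50A is the subunit it needs.

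Total counts ran from 24020891 to 41543050 per library, and all 8 members were among the 13107 genes that passed the low-count filter. Levels are counts-per-million (CPM) after TMM scaling, which sets the libraries on a common scale, as mean ± SD over 4 libraries. Log2 fold changes are estimates ± standard error from the quasi-likelihood test of edgeR, with p-values adjusted by Benjamini-Hochberg over all tested genes and 0.05 as the threshold of a call. Of the targeted genes, Osbpl8 (ORP8) stood at 333 to 346 CPM in the Parental libraries and at 89.4 to 136 in the 12 KD libraries, those labelled CDC50A KD and ATP11A/C KD included. Osbpl5 (ORP5) had 94 counts in all 16 libraries together and was not tested. Atp11a was 58.7 to 63.0 CPM in Parental and 20.6 to 22.6 in ATP11A/C KD. It also stood below Parental without overlap in CDC50A KD, at 41.3 to 44.7 CPM, and in ORP5/8 KD, at 52.5 to 54.0. Tmem30a (CDC50A) was 155 to 165 CPM in Parental and 120 to 134 in CDC50A KD, but also 118 to 143 in ORP5/8 KD (ORP5/8 against CDC50A: log2 fold change 0.04 ± 0.0611, adjusted p = 0.6) and 126 to 158 in ATP11A/C KD. The group names below are those of the labels, and the libraries labelled KD differ from Parental in more than the named target. Of 9 macrophage markers 8 were above 1 CPM in every group, with Mertk below; their summed level ran from 10628 to 11296 CPM in Parental, and from 6960 to 7353, 5652 to 6028 and 6541 to 6802 over the ORP5/8, ATP11A/C and CDC50A libraries. Lyz2 was the largest term of that sum in each group (7207 CPM in Parental, and 4168, 2582 and 2859 in the KD groups in that order). Of the 8 tested markers 7, 6 and 4 were lower and 1, 1 and 2 higher, Adgre1 being higher in each KD group (log2 fold changes 0.21, 0.63 and 0.50). Over all tested genes 24.3%, 20.2% and 26.1% were lower and 22.0%, 17.4% and 24.3% higher. The count of higher markers in CDC50A KD is near that last share. The 4 epithelial markers had no counts, and fibroblast, lymphocyte and neutrophil markers summed to at most 0.526 CPM in any library. The mitochondrial share of counts was 1.08% to 1.26% in Parental and 1.37% to 1.78% over the KD libraries. The part of macrophage marker levels and of the mitochondrial share in the annexin differences was not tested.

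The regions just before the start sites are shown for 3 members that behaved differently below: Anxa4 and Anxa7, which were lower in all 3 KD groups, and Anxa11, which was called in 1 of them. Sequences are from RefSeq (GRCm38.p6), where 6 of the 8 members matched by symbol (all but Anxa3 and Anxa6). Only stretches outside annotated exons are printed, 250 bases each, 5′ to 3′ on the strand of the gene and ending 1 base before the start site. Anxa4 and Anxa7 have 2 start sites each in that table, and the more upstream of them is shown. Capitals mark matches to the motifs named after the sequences.
Anxa4 (chr6:86793585-86793834, minus strand): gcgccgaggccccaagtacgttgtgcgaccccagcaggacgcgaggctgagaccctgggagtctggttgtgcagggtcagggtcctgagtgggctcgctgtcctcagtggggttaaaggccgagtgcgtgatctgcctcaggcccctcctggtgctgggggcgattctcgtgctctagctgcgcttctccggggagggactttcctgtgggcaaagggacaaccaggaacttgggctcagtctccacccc
Anxa7 (chr14:20480134-20480383, minus strand): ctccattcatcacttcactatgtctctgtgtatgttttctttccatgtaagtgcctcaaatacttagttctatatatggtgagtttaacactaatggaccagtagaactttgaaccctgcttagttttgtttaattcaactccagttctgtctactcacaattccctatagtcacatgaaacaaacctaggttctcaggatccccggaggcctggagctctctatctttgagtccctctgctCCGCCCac
Anxa11 (chr14:25841905-25842154, plus strand): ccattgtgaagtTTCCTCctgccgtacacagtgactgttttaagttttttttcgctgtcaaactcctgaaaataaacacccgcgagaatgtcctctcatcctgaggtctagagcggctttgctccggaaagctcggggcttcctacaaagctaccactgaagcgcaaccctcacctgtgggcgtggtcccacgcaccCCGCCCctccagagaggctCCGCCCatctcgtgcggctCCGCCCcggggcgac
The motifs searched on both strands were the TATA box (TATAAA), the CCAAT box (CCAAT), the GC box (GGGCGG), the AP-1 site (TGANTCA), the E-box (CACGTG) and a PU.1 core (GAGGAA). No matches overlapped. Anxa4 held none of them, Anxa7 held 1 GC box at position -8, and Anxa11 held GC boxes at -53, -34 and -15 and a PU.1 core at -238, each position being that of the match's first base counted back from the start site. Among all 32851 windows of this length, 32.7% held a GC box and 23.3% the PU.1 core. GC content was 64.8% with 13 CpG in Anxa4, 42.4% with 2 CpG in Anxa7 and 58.0% with 17 CpG in Anxa11, against medians of 52.4% and 6 CpG over all windows. The window of the other Anxa4 start site (chr6:86775115-86775364) had a GC content of 42% with 2 CpG and no match, so the base composition before Anxa4 depends on the start site taken.

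Levels of different genes are compared here per kilobase of exon, from the union of all annotated exons of a gene (GENCODE M21, mm10), a length that overstates the transcript where a gene has many isoforms. On that scale Anxa5 was the most abundant member in Parental at 319 ± 6.32 CPM per kb (n = 4), followed by Anxa2 at 131 ± 5.80, Anxa1 at 78.2 ± 2.33 and Anxa4 at 47.5 ± 1.61. Anxa6 at 18.4 ± 0.555 and Anxa7 at 17.2 ± 0.468 were close, then came Anxa11 at 12.7 ± 0.748 and Anxa3 at 10.975 ± 0.406. Each of these neighbouring steps was wider than the SDs of its pair, and the Parental libraries of no neighbours overlapped, though those of Anxa6 and Anxa7 came closest to it. The order of the 4 most abundant members and the last place of Anxa3 were the same in the 3 KD groups; in ORP5/8 KD Anxa11 at 11.7 ± 0.468 stood above Anxa7 at 9.82 ± 0.434. Anxa5 held 50.2% of the summed level per kb of the 8 members in Parental, and its share was 60.7% in CDC50A KD, 60.2% in ATP11A/C KD and 56.8% in ORP5/8 KD.

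**Figure D1:**
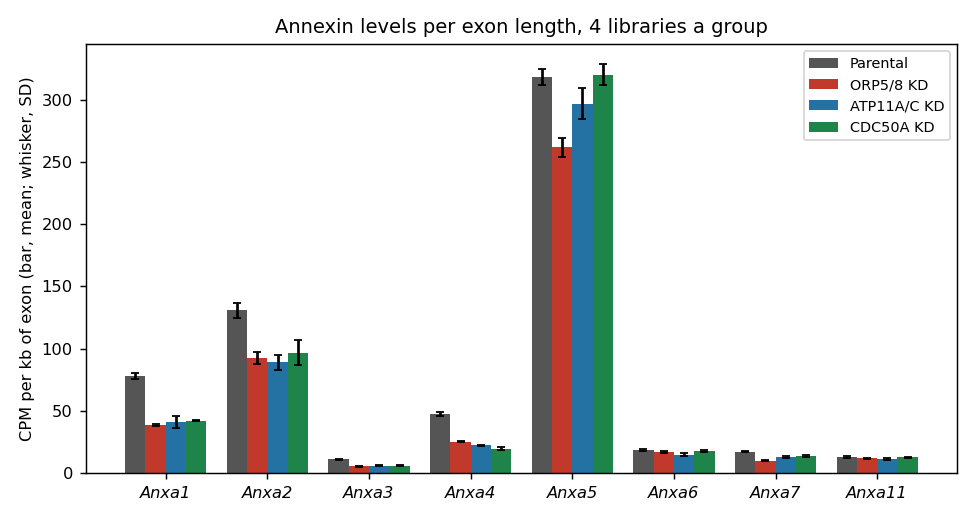
Mean level of each annexin in CPM per kb of exon (y axis) by gene (x axis) and group (colours), with the SD over 4 libraries as whiskers. Anxa5 is the highest bar in each group, at 319 CPM per kb in Parental, and Anxa3 the lowest.

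Annexin transcripts were lower in the KD groups than in Parental, and none was called higher. Anxa1, Anxa2, Anxa3, Anxa4 and Anxa7 fell in all 3 KD groups, while Anxa5, Anxa6 and Anxa11 differed less and not in every group. In ORP5/8 KD 7 of 8 members were lower, where 46.2% of all tested genes were called, 24.3% lower and 22.0% higher (18.9% and 32.6% under upper-quartile scaling, which called 6 members lower); 7 members did not overlap between the groups, against 44.0% of all genes. In ATP11A/C KD all 8 were lower, against a background of 37.6% called, 20.2% lower and 17.4% higher. The count was 7, without Anxa5, under upper-quartile scaling, with no low-count filter and in a fit of both groups alone. In this comparison 7 members did not overlap, against 33.3% of genes. In CDC50A KD 5 were lower, against 50.4% called, 26.1% lower and 24.3% higher, and the 5 did not overlap, against 48.0% of genes. The 5 members lower in each KD group compare with 10.9% of all tested genes; the 3 comparisons share the Parental libraries. The members' median log2 fold changes were -0.65 in ORP5/8 KD, -0.51 with the ATP11A/C label and -0.40 for CDC50A, while the medians of all tested genes were 0.02, 0.01 and -0.01. In bulk RNA, fewer expressing cells and less RNA per cell cannot be told apart. Summed over the members, the level was 1752 ± 41.6 CPM in Parental, against 1346 ± 50.9 in CDC50A KD, 1268 ± 34.9 in ATP11A/C KD and 1213 ± 33.1 in ORP5/8 KD.

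**Figure D2:**
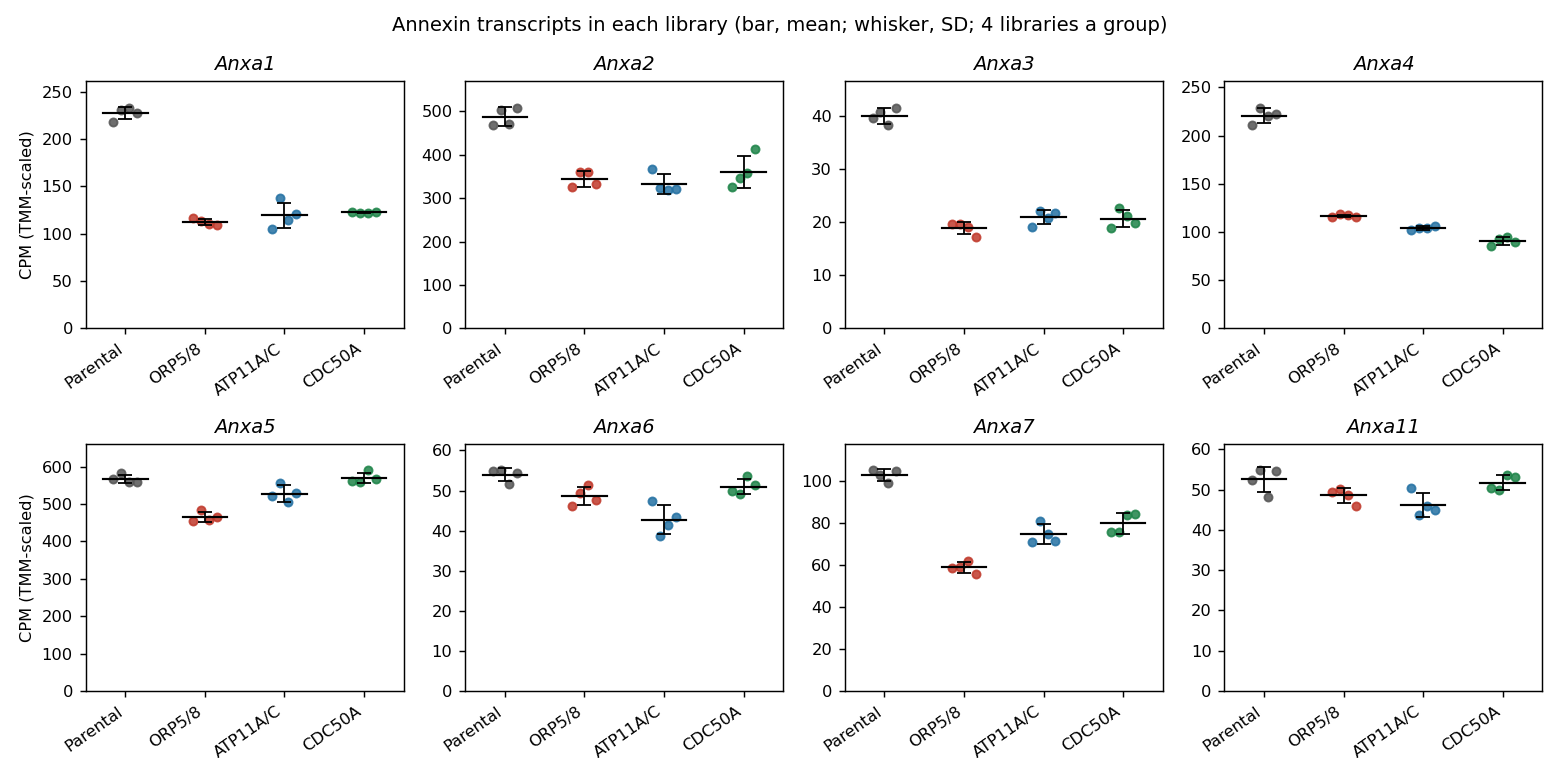
Level of each annexin in CPM after TMM scaling (y axis, from 0) in every library (points) by group (x axis), with the mean as a bar and the SD as whiskers. For Anxa1, Anxa2, Anxa3, Anxa4 and Anxa7 the 4 Parental libraries stand above all 12 KD libraries, and for Anxa5 the CDC50A KD libraries overlap the Parental ones.

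Anxa1 encodes annexin A1, which is secreted by macrophages and acts on formyl peptide receptors (ENSMUSG00000024659.15; mm10 chromosome 19, 20373428 to 20390944, minus strand). Its level was 218, 231, 233 and 228 CPM in Parental 1 to 4, and 116, 113, 110 and 109 in ORP5/8 KD 1 to 4. It was 105, 137, 115 and 120 CPM in ATP11A/C KD 1 to 4, and 123, 122, 121 and 123 in CDC50A KD 1 to 4. No KD library overlapped Parental, and the group means were 49.3%, 52.5% and 53.8% of the Parental mean in ORP5/8, ATP11A/C and CDC50A KD. On the log2 scale the changes were -1.02 ± 0.0560 (adjusted p = 2.01e-12), -0.93 ± 0.0560 (1.98e-11) and -0.89 ± 0.0560 (3.82e-11). ATP11A/C KD 2 was the highest KD library, and that group's coefficient of variation was 11.2% against 0.626% in CDC50A KD.

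Anxa3 encodes the least abundant member, described as an inhibitor of phospholipase A2 in vitro (ENSMUSG00000029484.12; chromosome 5, 96793339 to 96845966, plus strand). It stood at 39.5, 40.8, 38.1 and 41.5 CPM in Parental 1 to 4, and at 19.6, 19.5, 19.1 and 17.2 in ORP5/8 KD 1 to 4. The ATP11A/C KD libraries had 19.0, 22.1, 20.8 and 21.7 CPM and the CDC50A KD libraries 18.9, 22.5, 21.2 and 19.9. No KD library reached the lowest Parental library, and the 3 KD groups overlapped each other. Log2 fold changes for ORP5/8, ATP11A/C and CDC50A were -1.08 ± 0.0636 (adjusted p = 6.43e-12), -0.94 ± 0.0634 (1.29e-10) and -0.96 ± 0.0639 (1.03e-10). Across the 4 groups Anxa3 and Anxa1 had the most similar profiles of the 28 member pairs, 0.06 apart on the log2 scale (the distance between their group means of log2 CPM, each centred on its own average).

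Anxa2 encodes annexin A2, which pairs with S100A10 at the plasma membrane and binds plasminogen and its activator (ENSMUSG00000032231.14; chromosome 9, 69453620 to 69491795, plus strand). Its level was 468, 504, 470 and 509 CPM in Parental 1 to 4, and 326, 360, 360 and 332 in ORP5/8 KD 1 to 4. It was 366, 323, 318 and 322 CPM in ATP11A/C KD 1 to 4, and 326, 347, 357 and 412 in CDC50A KD 1 to 4. The Parental libraries again stood above the rest, by a smaller step than for Anxa1, and ATP11A/C KD 1 and CDC50A KD 4 were the high libraries of their groups. The means were 70.7%, 68.2% and 74.0% of Parental in ORP5/8, ATP11A/C and CDC50A KD, and log2 fold changes of -0.50 ± 0.0623 (adjusted p = 9.78e-07), -0.55 ± 0.0624 (3.65e-07) and -0.43 ± 0.0624 (7.32e-06).

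Anxa4 encodes annexin A4, which binds and aggregates membranes and assembles on them in ordered arrays (ENSMUSG00000029994.17; chromosome 6, 86736840 to 86793584, minus strand; its upstream sequence is printed above). It was 211, 229, 220 and 223 CPM in Parental 1 to 4. It fell to 116, 118, 117 and 115 CPM in ORP5/8 KD 1 to 4 and to 102, 104, 104 and 106 in ATP11A/C KD 1 to 4. In CDC50A KD 1 to 4 it stood at 85.7, 93.0, 95.0 and 89.6 CPM, the lowest values of the member. No group overlapped another, so the 4 groups formed a descending series from Parental through ORP5/8 and ATP11A/C to CDC50A KD, in which each neighbouring step was called (adjusted p = 2.67e-14, 0.00204 and 0.00115). Against Parental the estimates on the log2 scale were -0.92 ± 0.0392, -1.09 ± 0.0394 and -1.28 ± 0.0398, the last being the largest fall of any member (to 41.1% of the Parental mean, adjusted p = 4.04e-16).

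Anxa7 encodes annexin A7, or synexin, which promotes membrane fusion in exocytosis (ENSMUSG00000021814.17; chromosome 14, 20455260 to 20480133, minus strand; upstream sequence above). It was 105, 103, 99.0 and 105 CPM in Parental 1 to 4, and 58.5, 59.2, 62.0 and 55.7 in ORP5/8 KD 1 to 4. The values were 71.1, 81.1, 75.0 and 71.3 CPM in ATP11A/C KD 1 to 4 and 75.5, 75.7, 83.8 and 84.2 in CDC50A KD 1 to 4. ORP5/8 KD lay below both other KD groups without overlap, whereas for Anxa4 it lay above both. ATP11A/C KD and CDC50A KD overlapped and were not called apart (adjusted p = 0.161). In the order ORP5/8, ATP11A/C and CDC50A, the estimates were -0.81 ± 0.0509 (adjusted p = 2.19e-11), -0.47 ± 0.0505 (2.08e-07) and -0.37 ± 0.0505 (4.43e-06).

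Anxa5 encodes annexin A5, the phosphatidylserine probe (ENSMUSG00000027712.13; chromosome 3, 36448923 to 36475894, minus strand). It was 566, 582, 559 and 558 CPM in Parental 1 to 4, and 455, 484, 457 and 464 in ORP5/8 KD 1 to 4. It was 520, 556, 504 and 530 CPM in ATP11A/C KD 1 to 4, and 561, 558, 590 and 568 in CDC50A KD 1 to 4. ORP5/8 KD stood apart below all other libraries, ATP11A/C KD 2 came within a few CPM of the lowest Parental library, and CDC50A KD overlapped Parental. Anxa5 fell by a log2 fold change of -0.28 ± 0.0385 in ORP5/8 KD (adjusted p = 3.24e-06). For ATP11A/C KD it was -0.10 ± 0.0385 (adjusted p = 0.0421). The latter call was lost under upper-quartile scaling (-0.08, adjusted p = 0.124), with no low-count filter (-0.10, 0.124), in a fit of both groups alone (-0.10, 0.0869) and without any of the 4 Parental libraries or ATP11A/C KD 1, 3 or 4 (0.0601 to 0.204). In CDC50A KD the estimate was 0.01 with a 95% interval from -0.07 to 0.09 (adjusted p = 0.883).

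Anxa6 encodes annexin A6, which carries a pair of annexin cores and acts in endocytosis and cholesterol transport (ENSMUSG00000018340.13; chromosome 11, 54979108 to 55033445, minus strand). It stood at 54.9, 55.1, 51.6 and 54.4 CPM in Parental 1 to 4, and at 46.1, 49.4, 51.3 and 47.6 in ORP5/8 KD 1 to 4. It was 47.3, 38.7, 41.4 and 43.5 CPM in ATP11A/C KD 1 to 4, and 49.8, 49.2, 53.5 and 51.4 in CDC50A KD 1 to 4. ATP11A/C KD held the lowest libraries, ORP5/8 KD 3 all but reached Parental 3, and CDC50A KD overlapped Parental. The log2 fold change was -0.34 ± 0.0543 in ATP11A/C KD (adjusted p = 4.11e-05), -0.15 ± 0.0539 in ORP5/8 KD (0.0256) and -0.08 in CDC50A KD (95% interval -0.20 to 0.03, adjusted p = 0.211). The ORP5/8 KD call was lost under upper-quartile scaling (-0.08, adjusted p = 0.229) and without Parental 1, 2 or 4 or ORP5/8 KD 1, 2 or 4 (0.0537 to 0.122).

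Anxa11 encodes annexin A11, which tethers RNA granules to lysosomes and binds S100A6 and ALG-2 (ENSMUSG00000021866.15; chromosome 14, 25842156 to 25886804, plus strand; upstream sequence above). Its expected counts carry decimals, so some reads were shared with other records, and its antisense gene Anxa11os had no counts. The level was 52.4, 54.8, 48.2 and 54.7 CPM in Parental 1 to 4, and 49.4, 50.3, 48.7 and 45.8 in ORP5/8 KD 1 to 4. The ATP11A/C KD libraries had 50.3, 43.6, 46.0 and 44.9 CPM and the CDC50A KD libraries 50.4, 49.8, 53.7 and 53.1. Each KD group overlapped Parental, whose library 3 was low. Anxa11 was called in ATP11A/C KD only (-0.18 ± 0.0527, adjusted p = 0.00869). The estimate was -0.11 in ORP5/8 KD (95% interval -0.22 to -0.0044, adjusted p = 0.0824, and -0.15 with 0.0267 without Parental 3) and -0.02 in CDC50A KD (-0.13 to 0.09, adjusted p = 0.761).

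**Figure D3:**
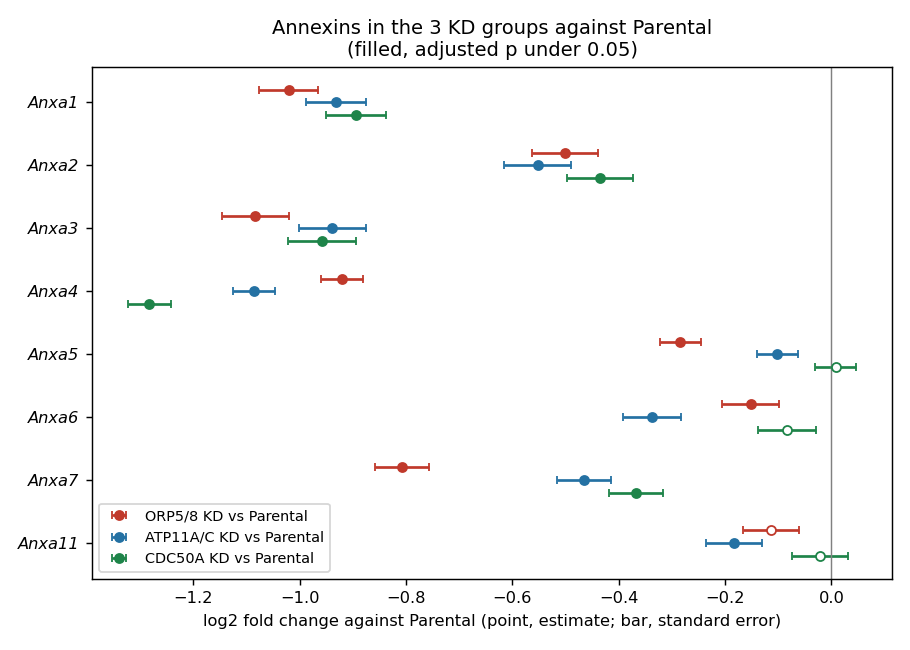
Log2 fold change of each annexin against Parental (x axis; points, estimates; bars, standard errors) by gene (y axis) and KD group (colours), filled where the adjusted p is under 0.05. All called points lie to the left of 0, and the CDC50A KD points of Anxa5, Anxa6 and Anxa11 are open.

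The KD groups were compared with each other to see where the annexins separate them. Anxa1, Anxa2 and Anxa3 were called in no pair of KD groups. Anxa4, Anxa5 and Anxa7 were called between ORP5/8 KD and both other KD groups. Between ORP5/8 KD and ATP11A/C KD 4 of 8 members were called, 2 higher and 2 lower in ORP5/8 KD, where 38.7% of all tested genes were called, 18.2% higher and 20.4% lower (23.6% and 15.4% under upper-quartile scaling, with the same member counts). Anxa4 (0.17 ± 0.0393, adjusted p = 0.00204) and Anxa6 (0.19 ± 0.0541, 0.00937) were higher in ORP5/8 KD. Anxa7 (-0.34 ± 0.0509, adjusted p = 1.53e-05) and Anxa5 (-0.18 ± 0.0385, 7.14e-04) were lower in it. Anxa6 overlapped between these groups and the other 3 did not; 32.9% of all genes did not overlap.

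Between ORP5/8 KD and CDC50A KD 3 members were called, against 56.8% of tested genes called, 27.5% higher and 29.4% lower (34.1% and 22.1% under upper-quartile scaling, with 3 members called there too). Anxa4 was higher in ORP5/8 KD (0.36 ± 0.0396 on the log2 scale, adjusted p = 1.44e-07), and Anxa7 and Anxa5 were lower in it by -0.44 ± 0.0510 (3.38e-07) and -0.29 ± 0.0385 (1.97e-06). These 3 and Anxa1 did not overlap between the groups, against 51.0% of all genes, but Anxa1 missed the threshold (-0.13, 95% interval -0.24 to -0.01, adjusted p = 0.0587). It passed with no low-count filter (adjusted p = 0.0453) and in a fit of both groups alone (0.0157).

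Between CDC50A KD and ATP11A/C KD 4 members were called, where 26.2% of tested genes were called, 13.5% higher and 12.7% lower in CDC50A KD. Anxa4 was lower in CDC50A KD (-0.20 ± 0.0397, adjusted p = 0.00115), and Anxa6 was higher (0.25 ± 0.0545, 0.00194). Anxa11 (0.16 ± 0.0527, adjusted p = 0.0273) and Anxa5 (0.11 ± 0.0385, 0.04) were also higher. Anxa11 overlapped and the other 3 did not, against 22.1% of all genes without overlap, but only 2 members stayed called in a fit of both groups alone and without ATP11A/C KD 3 or 4 or CDC50A KD 3 or 4, where Anxa5 and Anxa11 lost their calls (adjusted p = 0.0694 to 0.169). Anxa5 also lost it without ATP11A/C KD 1 or CDC50A KD 1 or 2 (0.0778 to 0.0973) and under every other scaling or filter tried (0.0512 to 0.0932), and Anxa11 without ATP11A/C KD 2 (0.0814), where Anxa7 gained one (0.0494). For the members with no called pair, the 95% intervals spanned -0.24 to 0.15 for Anxa1, -0.20 to 0.25 for Anxa2 and -0.28 to 0.11 for Anxa3 over the 3 pairs. These intervals hold differences as large as some called for other members. That of Anxa3 between ORP5/8 KD and ATP11A/C KD was -0.28 to -0.01 (adjusted p = 0.0832). Anxa1 and Anxa3 were called between ORP5/8 KD and ATP11A/C KD without ATP11A/C KD 1 (-0.14, adjusted p = 0.0292, and -0.18, 0.0307).

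**Figure D4:**
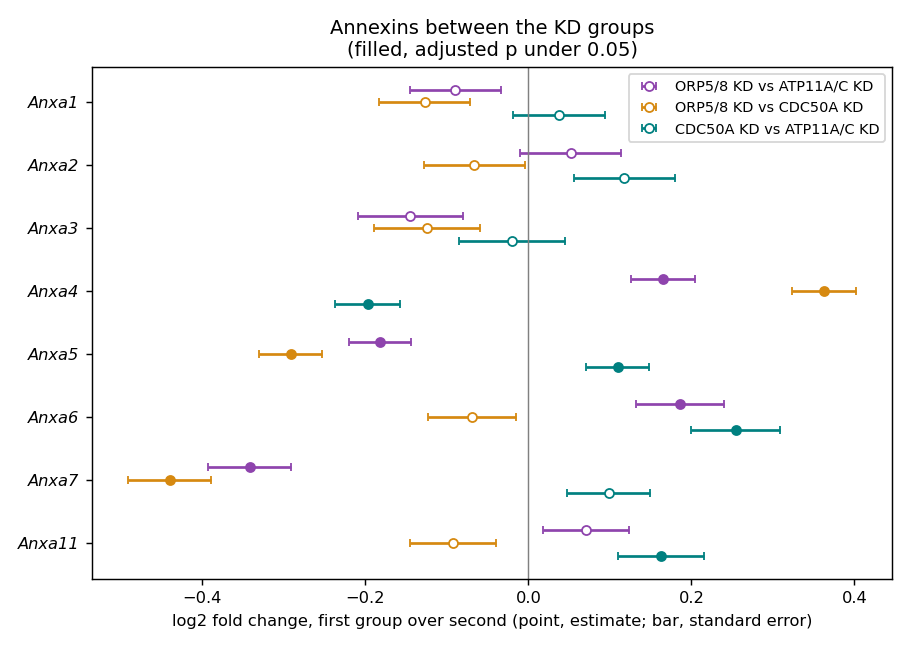
Log2 fold change of each annexin between KD groups (x axis; first group over second; points, estimates; bars, standard errors) by gene (y axis) and pair of groups (colours), filled where the adjusted p is under 0.05. Anxa4 and Anxa7 lie on opposite sides of 0 in both comparisons with ORP5/8 KD, at 0.36 and -0.44 against CDC50A KD.

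For the 5 members called in all 3 comparisons with Parental, the nearest profiles were sought among 8872 other tested genes with a mean of at least 10 CPM, by the distance between group means of log2 CPM over the 4 groups. The nearest gene to both Anxa1 (distance 0.08) and Anxa3 (0.07) was Emp1, which encodes an epithelial membrane protein. Emp1 had 160, 74.3, 84.7 and 86.5 CPM in Parental, ORP5/8, ATP11A/C and CDC50A KD, the order also used for the next genes. Anxa2 was nearest to Litaf (0.04), an endosomal membrane protein gene at 218, 159, 149 and 161 CPM. Nearest to Anxa4 was Cpne2 (0.08), at 17.0, 9.61, 8.08 and 7.29 CPM; copines are another family of calcium-dependent phospholipid binders. Nearest to Anxa7 was Stx7 (0.04), a syntaxin gene of late endosomes, at 135, 78.1, 100.0 and 103 CPM. With 4 groups to compare, near profiles are common among many genes, and these are given as a description.

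Of the annexins outside the 8, Anxa9 alone was tested, at 8.43 ± 0.591 CPM in Parental. It was lower in ORP5/8 KD, at 7.37 ± 0.271 CPM (log2 fold change -0.20, adjusted p = 0.0466), and stood at 7.45 ± 0.622 with the CDC50A label (0.0763) and at 8.23 ± 0.261 with ATP11A/C (0.753). Anxa8 had 1 count in all 16 libraries, and Anxa10 and Anxa13 had none, which allows up to 3 counts. The formyl peptide receptors, through which annexin A1 signals, were near absent too: Fpr2 had 9 counts over all 16 libraries, and Fpr1, Fpr3, Fpr-rs3 and Fpr-rs4 had none.

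S100 and penta-EF-hand proteins bind annexin heads, most of them when calcium rises; S100A10, which no longer binds calcium, binds annexin A2 without it. Of 11 tested genes of 15 listed, 6, 5 and 4 were lower in ORP5/8, ATP11A/C and CDC50A KD and none was higher. Their medians were -0.36, -0.17 and -0.10. Over all tested genes 24.3%, 20.2% and 26.1% were lower and 22.0%, 17.4% and 24.3% higher. The 4 of 11 lower in CDC50A KD is not far from its share of 26.1%. S100a10, the partner of annexin A2, fell from 201 ± 6.03 CPM to 125 ± 3.64, 131 ± 12.3 and 137 ± 2.63 (log2 fold changes -0.69, -0.62 and -0.55, adjusted p = 3.57e-10, 3.12e-09 and 1.82e-08). S100a11, a partner of annexin A1, fell from 168 ± 5.29 CPM to 82.0 ± 1.95, 109 ± 8.02 and 119 ± 5.60 (-1.03, -0.62 and -0.50). S100a6, a partner of annexin A11, fell from 242 ± 17.8 CPM to 146 ± 6.02, 185 ± 13.4 and 202 ± 5.74 (-0.73, -0.39 and -0.26). S100a11 and S100a6 were lower in ORP5/8 KD than with either other label: by log2 differences of -0.41 and -0.34 against ATP11A/C (adjusted p = 8.1e-07 and 4.02e-05) and of -0.54 and -0.47 against CDC50A (1.1e-08 and 3.71e-07). S100a4, the most abundant of them by CPM, was 1053 ± 60.6 in Parental. It fell in ATP11A/C KD to 944 ± 47.9 (adjusted p = 0.0119), and was 985 ± 28.3 in CDC50A KD (0.0962) and 1025 ± 42.8 in ORP5/8 KD (0.534).

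The plasminogen system, which annexin A2 concentrates at the cell surface, is given by 3 of its tested genes; Plg, which encodes plasminogen, had no counts. Plau, which encodes the plasminogen activator urokinase, fell from 106 ± 2.53 CPM to 27.4 ± 2.17 in ORP5/8 KD (-1.96 ± 0.0544, adjusted p = 1.99e-17). Plau also fell to 70.1 ± 1.31 in CDC50A KD (-0.60, 5.98e-09) and to 78.5 ± 5.15 in ATP11A/C KD (-0.44, 6.05e-07). Its receptor gene Plaur fell in ORP5/8 and ATP11A/C KD (-1.32 and -0.43, adjusted p = 1.91e-12 and 4.06e-05), while its 27.3 ± 1.49 CPM in Parental compare with 26.3 ± 1.84 for CDC50A KD (0.56). The plasminogen receptor gene Plgrkt was called in CDC50A KD alone (-0.19, adjusted p = 0.0116).

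Genes of other calcium-regulated phospholipid binders, which use C2 domains in place of annexin repeats, had 14 tested members of 26 listed. Of these 7, 9 and 8 were lower and 1, 2 and 2 higher in ORP5/8, ATP11A/C and CDC50A KD (medians -0.28, -0.34 and -0.46), beside 24.3%, 20.2% and 26.1% of all tested genes lower and 22.0%, 17.4% and 24.3% higher. Myof, a ferlin of membrane repair, fell from 211 ± 5.10 CPM to 172 ± 4.59, 119 ± 6.87 and 103 ± 2.91 (-0.30, -0.83 and -1.03), and was higher in ORP5/8 KD than in CDC50A KD (0.73, adjusted p = 8.19e-12) and than with the ATP11A/C label (0.53, 2.06e-09). Esyt1, which tethers the endoplasmic reticulum to the plasma membrane, fell in each group (log2 fold changes -0.27, -0.61 and -0.46). Pla2g4a, the cytosolic phospholipase A2, fell too (-0.35, -0.31 and -0.45), as did Rasa4, a calcium-responsive inactivator of Ras (-1.08, -0.65 and -0.90).

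Membrane repair genes of the ESCRT and calpain systems, which act beside annexins at plasma membrane wounds, had 15 tested members of 17. Of these 8, 8 and 4 were lower and none higher in ORP5/8, ATP11A/C and CDC50A KD (medians -0.15, -0.11 and -0.06). The shares over all genes were 24.3%, 20.2% and 26.1% lower and 22.0%, 17.4% and 24.3% higher. The count of lower genes in CDC50A KD is thus near the background. Capn2, the catalytic subunit of m-calpain, fell from 106 ± 5.38 CPM to 54.9 ± 1.78, 74.9 ± 1.72 and 85.5 ± 7.19 (-0.94, -0.50 and -0.31), while the calpain small subunit Capns1 was not called (adjusted p = 0.224, 0.664 and 0.556). Chmp4b, the filament subunit of ESCRT-III, fell in ORP5/8 KD (-0.70, adjusted p = 8.76e-10) and ATP11A/C KD (-0.24, 0.0014) and was -0.12 in CDC50A KD (0.0644). Chmp1b fell in each group (-0.46, -0.85 and -0.79). Pdcd6ip (ALIX) fell in ORP5/8 KD (-0.21, adjusted p = 5.51e-05) and, less, in ATP11A/C KD (-0.09, 0.0469).

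**Figure D5:**
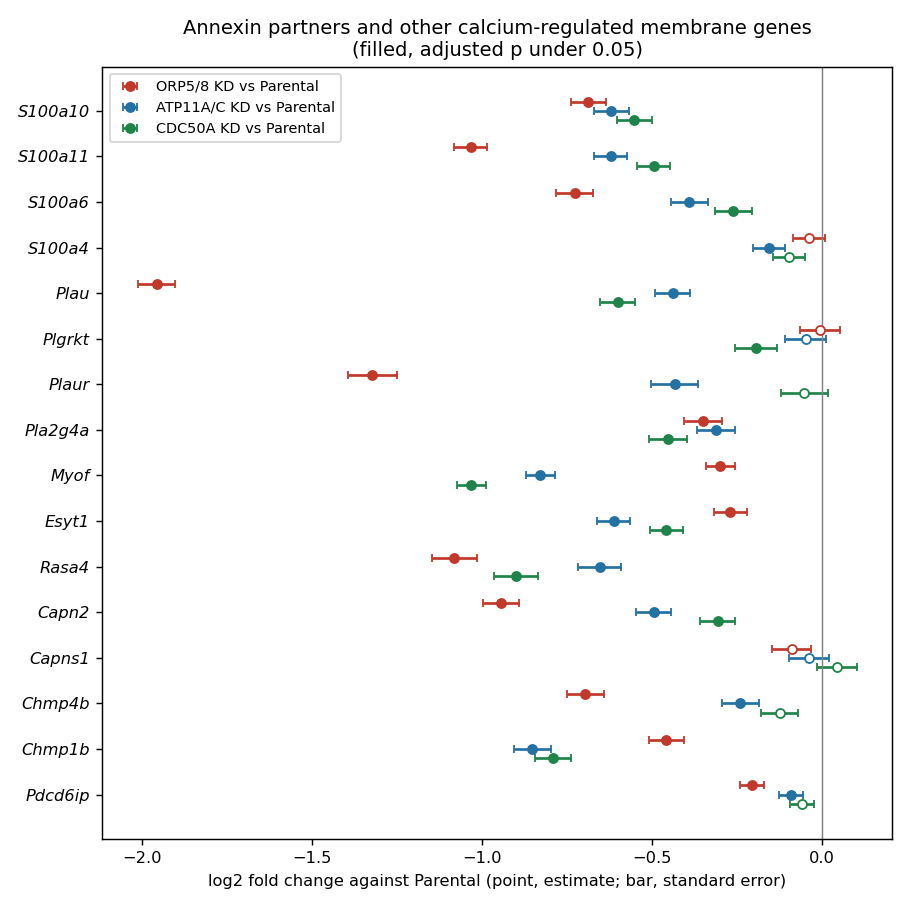
Log2 fold change against Parental (x axis; points, estimates; bars, standard errors) of S100 partners, plasminogen system, C2-domain and membrane repair genes (y axis) by KD group (colours), filled where the adjusted p is under 0.05. The fall of Plau in ORP5/8 KD, at -1.96, is the largest shown.

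Genes of calcium entry and calcium stores moved in both directions, with 2, 3 and 4 of 15 tested higher and 8, 6 and 6 lower in ORP5/8, ATP11A/C and CDC50A KD. Over all tested genes 22.0%, 17.4% and 24.3% were higher and 24.3%, 20.2% and 26.1% lower, so the counts of higher genes are near the background. Atp2a2, the calcium pump of the endoplasmic reticulum, was 771 ± 10.2 CPM in Parental and 666 ± 16.3 in ORP5/8 KD (-0.21, adjusted p = 8.54e-05), but rose to 934 ± 16.5 in CDC50A KD (0.28, 3.08e-06) and to 849 ± 36.9 in ATP11A/C KD (0.14, 0.00519). The inositol trisphosphate receptor genes Itpr1, Itpr2 and Itpr3 and the plasma membrane pump gene Atp2b1 fell in all 3 groups, Itpr1 with log2 fold changes of -0.65, -0.51 and -0.33. Anxa1 is a known target of glucocorticoids, so genes of that response were counted as well: of 7 tested among 8 listed, 2, 1 and 2 were higher and 1, 2 and 2 lower, near those same shares over all genes. The receptor gene Nr3c1 was not called (75.3 ± 1.82 CPM in Parental; adjusted p = 0.857, 0.129 and 0.209), and Tsc22d3, a glucocorticoid-induced leucine zipper gene, fell in ATP11A/C and CDC50A KD (-0.68 and -0.76) but was 12.9 CPM in both ORP5/8 KD and Parental (0.983). Klf9 rose by 0.76 in ORP5/8 KD (adjusted p = 5.18e-09) and by 0.21 in CDC50A KD (0.0156), and Per1 rose in each group (0.19, 0.36 and 0.27).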

How the data were processed

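Stranded mRNA libraries (16) of RAW264.7 cells were sequenced. Per the submitters' processing notes, Trim Galore 0.5.0, STAR 2.7.5a, Picard and RSEM were used with mm10; the annotation release is not given in the sources used here. The authors deposited RSEM expected counts per gene, of which 4.63% carry decimals. They were rounded to whole counts. ERCC spike-in records (92, all at 0) were left out.

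Groups are those of the labels. The filter filterByExpr (minimum count 10) left 13107 genes with 99.97% of counts. Libraries were TMM-scaled and fitted together with edgeR 4.0.16 (quasi-likelihood, R 4.3.3) on group alone, and 6 pairs of groups were tested. The biological coefficient of variation was 6.86%. The fit was tested on simulated data. No 2 libraries of a group agreed within sampling noise (chi-square per gene at least 4.85). ATP11A/C KD 1 stood furthest from its own group, at 45.0, 20.8 and 25.8 against replicates 2, 3 and 4. Every other pair in any group was at 18.4 or less. Coordinates and exon lengths came from GENCODE M21 (GRCm38).

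The 8 members and the gene lists were chosen with earlier results of these data known. Genes named from each list follow a rule: the 3 tested genes with the highest mean CPM and the 2 with the smallest adjusted p against Parental. Alternatives were other scalings and filters, a replicate block, fits of 2 groups, DESeq2 1.42.0 and leaving out each library. A few genes of the targets and lists are not reported here.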

Additional observations from a re-analysis of the deposited data

Results flagged for a closer look

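Of 32 sets of 4 libraries (8 members in 4 groups), 1 held a library far from the others, where chance gives about 1 in 20. Anxa2 stood at 366 CPM in ATP11A/C KD 1, while the other 3 libraries of that group lay between 318 and 323 CPM. That library remained below all Parental libraries.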

How the results depend on the processing

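Over 720 alternative values of the members' log2 fold changes, 670 kept their direction and side of the threshold, 35 lost a call, 6 gained one and 9 changed sign, none of which was called in either fit. The sign changes were Anxa5 in CDC50A KD against Parental (-0.0101 where genes needed 1 CPM in 4 libraries, and -0.0192 to 0.0294 over fits without 1 library), Anxa11 in that comparison (-0.0594 to 0.0078 without 1 library), and Anxa2 between ORP5/8 and CDC50A KD (0.0019 under upper-quartile scaling and -0.0983 to 0.019 without 1 library). Between CDC50A and ATP11A/C KD they were Anxa1 (-0.0274 to 0.1049 without 1 library) and Anxa3 (-0.0735 to 0.0106 without 1 library, and 0.0003 without ATP11A/C KD 2). The count of called members between CDC50A and ATP11A/C KD was 2 in a fit of both groups alone, and 2 to 4 over fits without 1 library; the cause was not tested. The summed level in ORP5/8 KD was 1254 CPM under upper-quartile scaling. Replicate numbers did not pair the libraries (correlations of same-numbered deviations from -0.17 to 0.11), and with the replicate block 7, 8 and 5 members were called in ORP5/8, ATP11A/C and CDC50A KD, as without it. Summed over the 4 libraries of a group, each member held at least 2723 counts. The lowest single library was CDC50A KD 2, with 515 counts of Anxa3. The part of depth in these results was not tested.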
